A study of Rattus norvegicus with 241 samples.

Results

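ID1, ID2, ID3 and ID4 make up the inhibitor of DNA binding (ID) family, and all 4 members were found by symbol, ignoring case, among the 21707 genes of the tables. They were followed through all 241 samples of the study, which are 202 bulk RNA-seq samples and 39 single-cell libraries of the rat mammary gland. The study dosed female rats with LY2157299 (TGFBRi), which blocks the kinase of the type I TGFβ receptor, and compared them with rats given vehicle. Cells were sorted as basal (CD24+CD29high), luminal (CD24+CD29low) or CD45+ leukocytes, or the whole gland was dissociated for single-cell RNA-seq. The questions put to the ID genes here are in which cells of the gland they are expressed and whether TGFBRi moved them.

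Every treated rat received 75 mg/kg TGFBRi at each of 2 doses per day. In young ACI rats, an inbred strain, dosing began at 35 days of age, lasted 10 days and was followed by collection on day 0, 7 or 14, with 3 rats per group and all 3 fractions in bulk. In young SD rats, an outbred strain, dosing began at 24 days of age, lasted 10 days and was followed by collection on day 0, with 4 rats per group in bulk. Adult ACI rats, virgin or parous, were dosed for 10 days from 18 to 24 weeks of age and taken at day 0, with 4 rats per group except in CD45+ cells (4 vehicle and 3 TGFBRi virgin rats, 2 vehicle and 4 TGFBRi parous rats). In the NMU experiment dosing of SD rats began at 21 days of age and lasted 10 days, and all received the carcinogen NMU and were taken at day 87 after it. Each fraction came from 3 rats with tumors given vehicle and, of the TGFBRi rats, 3 without and 3 with tumors, with tumors of 3 vehicle and 3 TGFBRi rats sorted as EPCAM+ and CD45+ cells. In the estradiol (E2) experiment dosing of ACI rats began at 38 days of age and lasted 21 days, and luminal and CD45+ cells came from 4 vehicle and 3 TGFBRi rats without E2 and with an E2 pellet, from 4 vehicle rats with tumors and from TGFBRi rats, 4 without and 2 with tumors. The tumor-free TGFBRi rats with E2 gave 7 samples from 4 rats, and the samples of 1 rat were averaged. Single cells came from young rats at day 0, as basal and luminal sorts of 3 vehicle and 3 TGFBRi ACI rats and of 3 vehicle and 6 TGFBRi SD rats, and as whole glands of 3 vehicle and 6 TGFBRi SD rats.

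ID proteins carry a helix-loop-helix domain but no DNA-binding region, so that they pair with E proteins (TCF3, TCF4, TCF12) and other helix-loop-helix factors and keep them off DNA. They are known for holding cells in a less differentiated or dividing state, and their genes are direct targets of BMP signaling through SMAD1 and SMAD5, while TGFβ acting through SMAD3 can raise or lower them depending on the cell. In the mammary gland ID2 is required for alveolar development, and ID4 is known as a regulator of basal cells and of ductal growth in puberty.

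The 200 bases that end 51 bases before each RefSeq transcription start (assembly GRCr8, written 5′ to 3′ on the strand of the gene) are shown because the 4 members lie on separate chromosomes and differ in cell type, as described next. Capitals mark every match to a searched motif.
ID1, chr3:161671314-161671513, plus strand: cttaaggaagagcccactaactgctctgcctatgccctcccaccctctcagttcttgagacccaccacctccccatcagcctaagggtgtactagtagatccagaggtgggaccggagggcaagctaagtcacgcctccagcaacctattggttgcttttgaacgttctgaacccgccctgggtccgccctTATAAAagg
ID2, chr6:47471046-47471245, minus strand: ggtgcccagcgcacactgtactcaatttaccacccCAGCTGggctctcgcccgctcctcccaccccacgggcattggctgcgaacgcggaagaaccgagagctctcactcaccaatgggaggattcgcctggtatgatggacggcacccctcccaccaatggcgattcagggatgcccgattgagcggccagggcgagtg
ID3, chr5:153656041-153656240, plus strand: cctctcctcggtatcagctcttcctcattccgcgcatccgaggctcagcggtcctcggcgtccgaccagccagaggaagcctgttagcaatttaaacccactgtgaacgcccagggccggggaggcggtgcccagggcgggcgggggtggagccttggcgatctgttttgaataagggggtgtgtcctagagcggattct
ID4, chr17:16598344-16598543, minus strand: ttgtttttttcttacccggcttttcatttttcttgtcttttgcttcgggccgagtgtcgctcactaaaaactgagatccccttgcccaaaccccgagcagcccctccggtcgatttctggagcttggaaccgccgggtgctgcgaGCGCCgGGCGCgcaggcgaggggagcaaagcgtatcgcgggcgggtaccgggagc
The motifs searched on both strands were the BMP-SMAD element GGCGCC and its shorter form GGCGC, the SMAD element CAGAC, the E box CANNTG that helix-loop-helix factors read, and the TATA box TATAAA. Over 33469 rat promoters of this length they were present in 6.56%, 24.2%, 36.6%, 57.9% and 9.98%. The window of ID4 held 2 matches to GGCGC, the nearer at 99 bases before the start, that of ID2 held 1 E box at 215 bases and that of ID1 held 1 match to TATAAA at 59 bases. ID3 held none of these letters in its window, and CAGAC and GGCGCC were in none of the 4. A match is a run of letters and not a measured binding site. Bases nearer to the start than 51 were not searched, so that motifs there, TATAAA among them, would be missed.

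Bulk values are read counts divided by a size factor per sample (normalized counts), and differences are log2 of normalized counts plus 1 with the standard error, tested by limma at 0.05 after Benjamini-Hochberg adjustment over all genes. Single-cell values are UMIs of a gene divided by all UMIs of the cells summed per rat, and given as CPM, tested by edgeR at an adjusted p of 0.1 or less. Rats are the replicates in both. Reads on genes ran from 4194912 to 52314784 per bulk sample, and the single-cell libraries held 16762 cells in the ACI sorts, 39766 in the SD sorts and 103524 in the whole glands. In bulk, fewer cells of a type and less RNA per cell cannot be told apart.

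Sort markers summed in each bulk library showed RNA of markers of other cells in many of them. The lists hold different genes, so that a larger sum of 1 list than of another does not give the share of cells. All 8 young SD basal libraries held more fibroblast marker counts (186542 to 621336) than basal ones (52700 to 131695). Most young ACI and young SD CD45+ libraries and all gland CD45+ libraries of the NMU experiment held more fibroblast than leukocyte marker counts. Some young ACI basal libraries held more fibroblast than basal marker counts, the most in day 0 TGFBRi replicate 3 (505993 against 42032). The part of fibroblasts in the values of these fractions was not tested. All 3 libraries of adult virgin vehicle replicate 1 were mixed by their markers. Its basal library held 432779 normalized counts of luminal markers against 97074 to 108134 in the other virgin vehicle rats, and its luminal library held 39637 of basal markers against 2920 to 5534. The CD45+ library of NMU tumor-bearing TGFBRi replicate 1 held 257536 of basal markers and 10257 of leukocyte markers. Whole gland libraries shared 1.114 to 2.509% of the cell barcodes of the smaller library of a pair, and sorted libraries at most 0.5164%. The parts of these libraries in the results were not tested other than by leaving them out.

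ID4 was a basal gene and ID2 a luminal gene in bulk sorts of both strains. In vehicle ACI rats at day 0, ID4 had 11104, 12116 and 8361 normalized counts in the basal sort against 998, 1459 and 1246 in the luminal sort of the same 3 rats. Every basal sample lay above every luminal sample, a difference of 3.09 ± 0.41 on the log2 scale (8.52-fold, adjusted p = 1.44e-06). In vehicle SD rats ID4 had 1524, 1922, 1802 and 1766 in the basal sort against 460, 114.3, 163.7 and 111.1 in the luminal sort, a difference of 3.30 ± 0.37 (9.88-fold, adjusted p = 2.09e-08), and again the groups did not overlap. The high luminal value of 460 came from replicate 1, whose luminal library also held the most basal marker reads of its group (67946).

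ID2 went the other way. It had 8090, 7211 and 9808 normalized counts in ACI luminal cells and 1807, 1943 and 1985 in basal cells, a basal minus luminal difference of −2.12 ± 0.46 (adjusted p = 0.000929). In SD rats it had 1506, 2512, 3143 and 3656 in luminal cells and 768.2, 636.5, 689.6 and 676 in basal cells, a difference of −1.89 ± 0.38 (adjusted p = 0.000142). All luminal samples lay above all basal samples of their strain.

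In the fit without rat as block, ID1 was called higher in luminal cells of SD rats, and ID3 was called in neither strain. ID1 had 1221, 1420, 3517 and 1478 in SD luminal cells and 348.8, 262.7, 293 and 348.1 in SD basal cells, a difference of −2.48 ± 0.41 (adjusted p = 1.06e-05). In ACI rats ID1 had 2171, 2132 and 3410 in luminal and 827.1, 1075 and 1422 in basal cells, without overlap, at −1.21 ± 0.72 (adjusted p = 0.283). ID3 had 6489, 7023 and 5516 in ACI basal and 1827, 1972 and 2375 in luminal cells, without overlap, at 1.62 ± 0.70 (adjusted p = 0.111). In SD rats ID3 overlapped between 1839, 1385, 1683 and 2229 in basal and 2237, 751.8, 2101 and 767.8 in luminal cells (0.45 ± 0.47, adjusted p = 0.48).

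Thus 2 of the 4 members were called in ACI rats, where 20.5% of all genes tested were called, and 3 of 4 in SD rats, where 40.9% were. Basal and luminal samples came from the same rats, and in a fit with rat as replicate block all 4 members were called in ACI rats, where that fit called 34.6% of all genes (adjusted p = 0.00683 for ID1 and 0.00129 for ID3) and the same number, 3, in SD rats, where it called 42.9%.

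**Figure D1:**
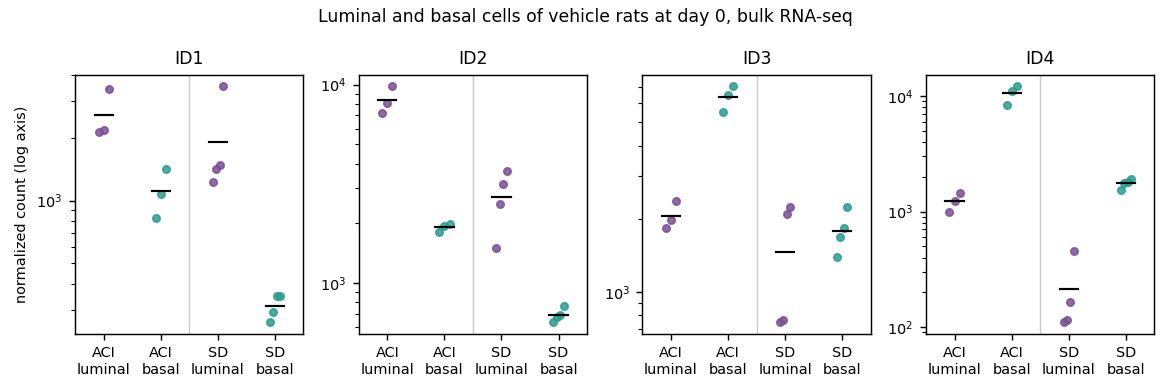
Normalized counts of ID1, ID2, ID3 and ID4 (log axis) in basal and luminal bulk samples of vehicle rats at day 0, with 1 point per rat for 3 ACI and 4 SD rats. ID4 lies higher in all basal samples and ID2 in all luminal samples of both strains, while ID3 of SD rats overlaps.

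Single cells of the same 2 sorts gave wider gaps for ID4 and a call for ID3 in both strains. Their number is that of the cells the paper kept after filters not used in bulk. Those filters removed cells with few keratin reads or any CD45 read, and cells that clustered with the other sort. The part of these filters in the wider gaps was not tested. ID4 had 571.9, 696.3 and 457.1 CPM in basal and 13.6, 11.1 and 10.4 CPM in luminal libraries of vehicle ACI rats, a difference of 5.59 ± 0.19 (48.3-fold, adjusted p = 6.58e-08). In vehicle SD rats it had 398, 394.6 and 363.7 CPM in basal and 3.88, 4.92 and 5.15 CPM in luminal libraries, a difference of 6.35 ± 0.18 (81.5-fold, adjusted p = 3.13e-08). Basal and luminal values did not overlap in either strain.

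ID3 followed ID4, with 24.0, 25.8 and 9.83 CPM in ACI basal and 8.93, 6.70 and 7.97 CPM in ACI luminal libraries (1.33 ± 0.33, adjusted p = 0.00987). The gap of ID3 was wider in SD rats, with 83, 89.99 and 110.1 CPM in basal and 12.4, 8.31 and 8.21 CPM in luminal libraries (3.25 ± 0.25, adjusted p = 3.45e-06). Whether the gap itself differed between strains was not tested.

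ID2 was luminal in single cells too, at 81.1, 66.2 and 90.6 CPM in ACI luminal and 8.50, 7.72 and 4.46 CPM in ACI basal libraries (−3.50 ± 0.22, adjusted p = 2.95e-06). In SD rats ID2 had 63.4, 88.2 and 55.2 CPM in luminal and 14.2, 17.6 and 8.86 CPM in basal libraries (−2.38 ± 0.27, adjusted p = 3.91e-05). ID1 was called luminal in ACI rats, at 15.2, 26.5 and 19.4 CPM against 2.48, 1.72 and 0.457 CPM in basal libraries (−3.56 ± 0.41, adjusted p = 0.000165). In SD rats ID1 overlapped between 13.2, 6.56 and 13.03 CPM in luminal and 7.48, 12.9 and 11.9 CPM in basal libraries (−0.08 ± 0.38, adjusted p = 0.851). These 7 calls of 8 stand against 66.7% of all genes called in ACI and 53.7% in SD rats, so that the count of called members was not far from that of other genes, and the sizes and directions carry the description.

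Within the basal sort, cells with UMIs of at least 3 of 5 chosen markers of secretory basal cells (PROCR, SORBS2, SPARCL1, IGFBP7 and EPAS1) held more ID1, ID2 and ID3 in SD rats. The markers were picked for this description from genes the study ties to a basal subpopulation it found in these libraries, so that the split is not independent of them. ID3 itself is one of the genes by which the study describes that subpopulation, and its level in these cells is a description. In the 3 vehicle SD rats such cells had 400, 371.8 and 681.6 CPM of ID3 against 61.8, 58.8 and 99.7 CPM in the other basal cells, and 46.8, 69.6 and 46.8 CPM of ID1 against 4.85, 6.58 and 11.2 CPM. ID4 did not stand apart in this way, at 388.3, 376.9 and 227.2 CPM against 398.6, 396.6 and 366.2 CPM. The marked cells also held 556.7, 670.5 and 240.6 CPM of DES, a muscle intermediate filament gene, against 0.313 to 1.71 CPM in the other cells. KRT14, a basal keratin, was at 159.1, 122.2 and 160.4 CPM against 332, 265.6 and 356 CPM. There were 21 to 42 such cells per vehicle rat. They had more UMIs per cell than the others, 6565 to 12878 against 4350 to 9107 at the median, and cells with more UMIs reach 3 markers more easily.

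Across the named classes of the whole gland, ID1, ID3 and ID4 had their highest mean in vascular smooth muscle-like cells, also within the vehicle and within the TGFBRi rats, and ID2 in NK cell-like and macrophage-like cells. Clusters of cells were given a class from marker lists, and 13 classes were compared over 9 SD rats, both treatments together. Neighbouring classes in the order of a gene were compared by an exact two-sided sign-flip test over rats on log2 CPM, where 0.00391 is the smallest unadjusted p that 9 rats allow, with p adjusted over the neighbours of that gene. Classes were put in order by the same values, so that the direction of each step was set beforehand. The clusters were formed from the same cells, without the ID genes. These p-values describe how alike a step was across rats and not an independent order or choice of classes.

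ID1 was highest in the vessels. It had 286.4 ± 89.3 CPM (SD, n = 9 here and for the other classes) in vascular smooth muscle-like cells, 168.1 ± 37.6 CPM in endothelium-like cells and 65.9 ± 20.9 CPM in lymphatic endothelium-like cells. The steps between these classes were in the same direction in 8 of 9 rats (adjusted p = 0.0313 for each by exact sign flips). Values of neighbouring classes overlapped, at 120.7 to 426.5, 95.2 to 220.1 and 37.2 to 110.4 CPM in the same order. Pericyte-like cells followed at 39.6 ± 16.3 CPM, which was not separated from lymphatic endothelium (adjusted p = 0.0737 by exact sign flips). ID1 lay at 5.88 CPM in luminal progenitor-like, 4.63 CPM in basal-like and 1.79 CPM in B cell-like cells.

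Among the named classes ID2 led in leukocytes, although 3 unnamed clusters described further on held more. It had 172.2 ± 31.7 CPM in NK cell-like and 163 ± 51.5 CPM in macrophage-like cells, a step found in 5 of 9 rats (exact adjusted p = 0.678). In vehicle rats NK cell-like cells held 186 ± 40.3 CPM and macrophage-like cells 117.6 ± 30.8 CPM (SD, n = 3). With TGFBRi they held 165.3 ± 28.01 and 185.8 ± 44.7 CPM (SD, n = 6). In neither class did edgeR call ID2 after TGFBRi (adjusted p = 0.786 and 0.343), and the turn in their order was not tested. ID2 is required for the development of NK cells and of several other innate lymphocytes. Vascular smooth muscle-like cells held 67.2 ± 26.01 CPM, below macrophages (exact adjusted p = 0.0469), and T cell-like cells 50.99 CPM. Among epithelial classes ID2 had 23.3 CPM in luminal progenitor-like, 12.4 CPM in basal-like and 7.66 CPM in mature luminal-like cells over both treatments. In vehicle rats alone these were at 15.4 ± 5.75, 16.9 ± 8.29 and 12.7 ± 3.14 CPM (SD, n = 3), with overlap, so that the order over all rats did not hold there.

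ID3 and ID4 shared their order at the top. ID3 had 2761 ± 1003 CPM in vascular smooth muscle-like, 2206 ± 553 CPM in pericyte-like, 838 ± 292 CPM in Schwann-like and 484 ± 70.8 CPM in fibroblast-like cells. The first of these steps was found in 7 of 9 rats (exact adjusted p = 0.0762). That of pericytes over Schwann cells was found in 9 rats (exact adjusted p = 0.0156) and that of Schwann cells over fibroblasts in 8 (exact adjusted p = 0.0188). ID3 had 106.9 CPM in basal-like cells and was lowest in luminal cells, at 18.1 CPM in mature luminal-like and 16.4 CPM in luminal progenitor-like cells.

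ID4 had 122 ± 29.4 CPM in vascular smooth muscle-like, 88.8 ± 25.8 CPM in pericyte-like and 81.1 ± 34.8 CPM in Schwann-like cells. Each of these steps was found in 7 of 9 rats (exact adjusted p = 0.0703 and 0.453). Basal-like cells came next at 31.5 ± 10.9 CPM, below Schwann cells and above fibroblasts (exact adjusted p = 0.0234 for each). ID4 was low in leukocytes, at 2.55 CPM (0 to 7.90 CPM) in macrophage-like, 0.928 CPM in B cell-like, 0.645 CPM in T cell-like and 0.151 CPM in NK cell-like cells, and at 0.571 CPM in mature luminal-like cells.

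**Figure D2:**
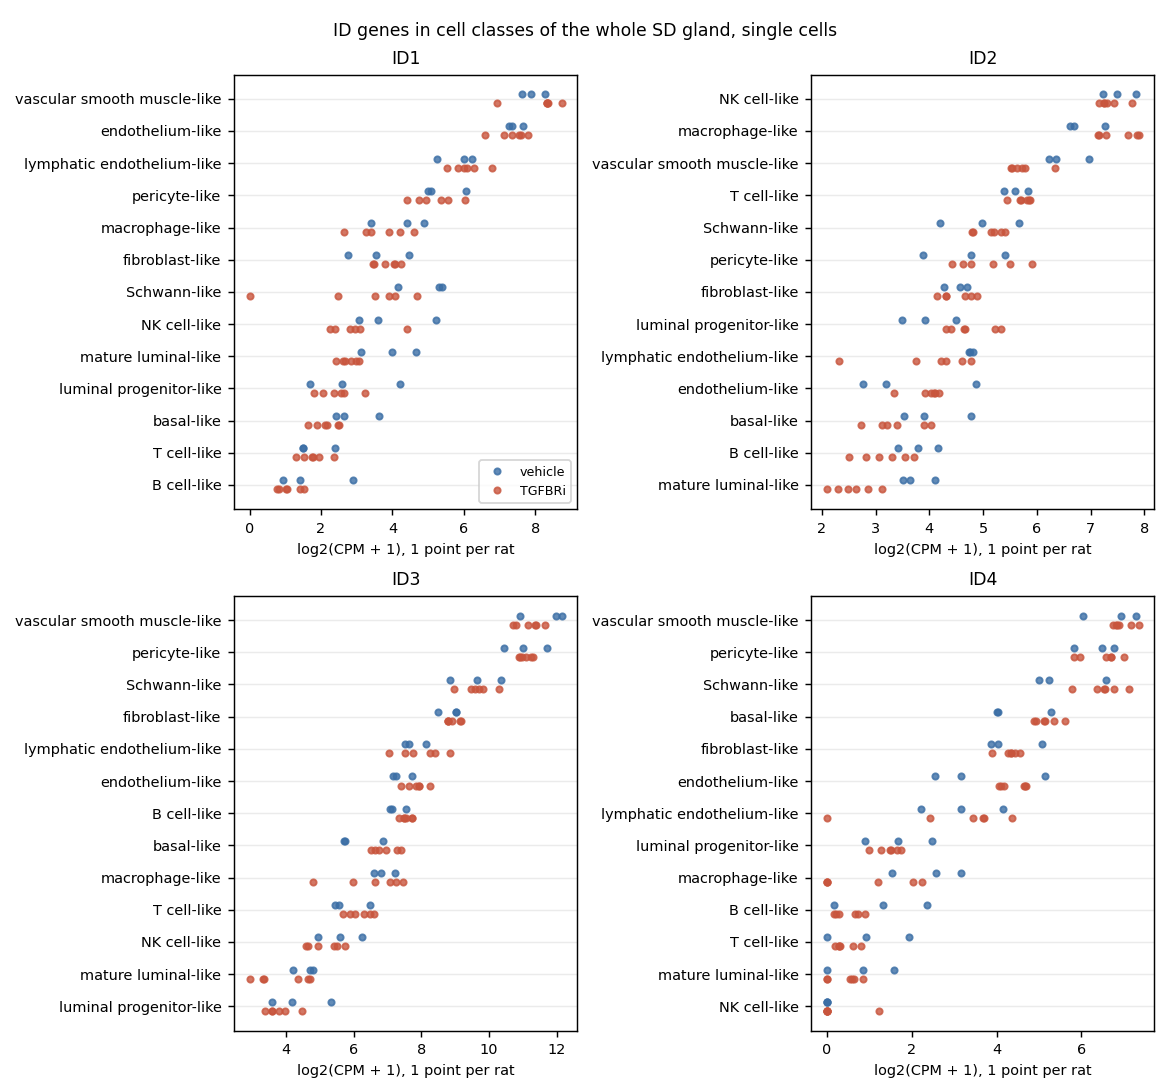
CPM of the ID genes (log axis) in named cell classes of the whole gland, with 1 point per rat for 3 vehicle and 6 TGFBRi SD rats. ID1, ID3 and ID4 are highest in vascular smooth muscle-like cells, and ID2 in NK cell-like and macrophage-like cells.

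Over the 13 classes in vehicle rats, the mean log2 CPM of ID3 correlated with that of ID4 at r = 0.873 (Pearson, 13 points that share the same 3 rats), of ID1 with ID3 at 0.613 and with ID4 at 0.612. ID2 stood apart, at 0.16 with ID1, 0.171 with ID3 and −0.0584 with ID4. Of 5803 genes ranked by the same measure, those most like ID4 were GJC1 (0.949), COL12A1 (0.937) and TNS1 (0.933), and those most like ID3 were REM1 (0.939), OLFML2B (0.927) and GUCY1A2 (0.922). ID1 was most like RPS6KA3 (0.919), EPAS1 (0.915), a hypoxia-inducible factor of endothelium, and ESAM (0.89), an endothelial adhesion molecule. ID2 was most like CDK12 (0.843), MXD1 (0.826) and CST7 (0.781), a cystatin of cytotoxic cells.

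ID3 and ID2 were called higher after TGFBRi in single cells of the ACI basal sort at day 0. Bulk samples of the same sort and day called neither, with values given further on. ID3 had 24.0, 25.8 and 9.83 CPM in vehicle rats and 53.6, 44.2 and 51.6 CPM in TGFBRi rats, so that all treated rats lay above all controls. The difference was 1.52 ± 0.42 (adjusted p = 0.0293), and it was called in each of 4 settings and with each rat left out. In the basal cells with fewer than 3 secretory basal markers the groups were as far apart, at 22.2, 22.7 and 10.4 CPM against 50.5, 42.4 and 45.8 CPM of ID3.

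ID2 had 8.50, 7.72 and 4.46 CPM with vehicle and 9.52, 10.2 and 8.37 CPM with TGFBRi, groups that overlapped, at 0.63 ± 0.25 (adjusted p = 0.0387). That call was lost with library totals in place of the TMM scaling factors (0.41, adjusted p = 0.15) and without TGFBRi rat ACI12 or ACI15 (adjusted p up to 0.111). ID1 had 2.48, 1.72 and 0.457 CPM against 4.64, 1.93 and 3.02 CPM (1.17, adjusted p = 0.106 by edgeR and 0.039 by DESeq2). In this comparison 33% of all genes were called, and 2 of 4 members were. Fibroblast markers, summed over 6 genes, were at 97.1, 24.3 and 2.63 CPM in the vehicle and 60.7, 354.4 and 66.2 CPM in the TGFBRi libraries, and pericyte markers at 8.00 to 14.4 and 8.19 to 10.1 CPM. Smooth muscle markers, which basal cells also express, summed to 20805 to 21622 CPM with vehicle and 16999 to 17669 CPM with TGFBRi. The part of these markers in the result was not tested.

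ID4 itself did not pass the test in basal single cells of either strain. It had 523.7, 590.9 and 495.6 CPM in TGFBRi ACI rats against the 571.9, 696.3 and 457.1 CPM of vehicle. The difference was 0.12 with TMM and −0.10 with library totals, so that its sign depended on the scaling. In SD rats it was 0.22 and −0.17 by the same scalings. Library totals lowered the median difference of all genes from −0.03 to −0.25 in the ACI basal sort and from 0.07 to −0.32 in the SD basal sort, and by 0.22 to 0.39 over the sorted comparisons, and the differences of these sorts are relative to that shift. In whole gland classes the shift was at most 0.25.

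In SD basal cells ID3 was called at the edge of the threshold. It had 83, 89.99 and 110.1 CPM with vehicle and 61.8 to 251.9 CPM in the 6 TGFBRi rats (median 128.2), a difference of 1.01 ± 0.41 (adjusted p = 0.0993), and the groups overlapped. The call was lost with library totals (0.61, adjusted p = 0.26), without a filter on low counts (adjusted p = 0.102), and without any of the rats SD1, SD2, SD3, SD12, SD13 or SD14. TGFBRi rat SD13 was highest in all 4 members, at 51.6 CPM of ID1, 57.1 CPM of ID2, 251.9 CPM of ID3 and 443 CPM of ID4. Its basal library was the smallest of all, with 563 cells, and held 75.9 CPM of pericyte markers against 6.77 to 30.5 CPM in the other 8 basal libraries. Of its basal cells 162 had at least 3 secretory basal markers, and its other 401 cells held 9.56 CPM of ID1 and 92.8 CPM of ID3. Vehicle library SD2 stood apart in fibroblast markers, at 8338 CPM against 459 and 277.4 CPM in the other vehicle libraries and 187.5 to 2406 CPM with TGFBRi. Without SD2 ID3 was at 0.96 (adjusted p = 0.191). Basal markers summed to 9085 to 10018 CPM with vehicle and 10406 to 12533 CPM with TGFBRi, and the part of these differences in the result was not tested. In this comparison 24.7% of all genes and 1 of 4 members were called.

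**Figure D3:**
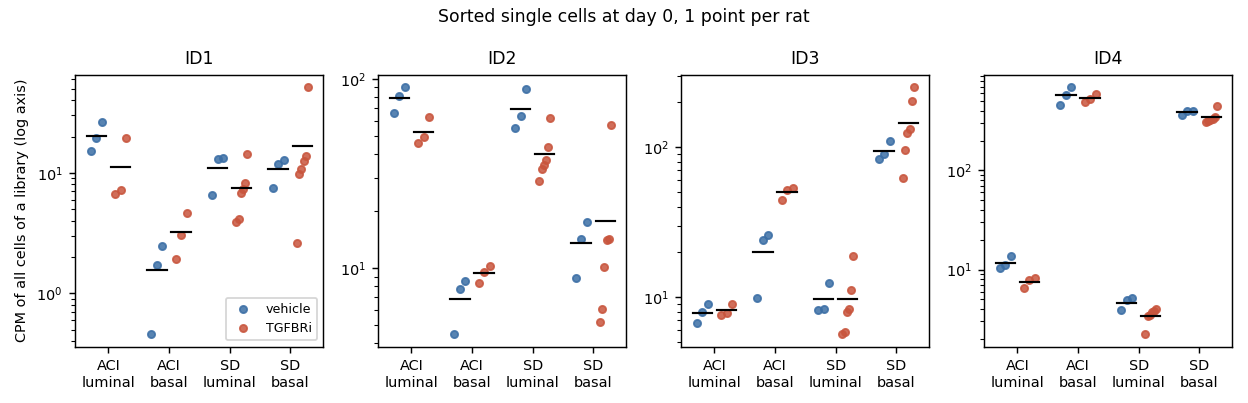
CPM of the ID genes (log axis) in sorted basal and luminal single-cell libraries at day 0, with 1 point per rat (3 vehicle and 3 TGFBRi ACI rats, 3 vehicle and 6 TGFBRi SD rats). ID3 of ACI basal cells separates the treatments, and SD13 is the highest SD basal point of each gene.

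In luminal sorts ID2 and ID4 were lower after TGFBRi in ACI rats without passing the test. ID2 had 81.1, 66.2 and 90.6 CPM with vehicle and 48.9, 63.1 and 45.8 CPM with TGFBRi in ACI rats, and ID4 had 13.6, 11.1 and 10.4 CPM against 8.24, 7.88 and 6.46 CPM. Neither pair of groups overlapped, yet the differences were −0.31 (adjusted p = 0.181) for ID2 and −0.36 (adjusted p = 0.136) for ID4. With library totals both were called, at −0.59 (adjusted p = 0.0174) and −0.64 (adjusted p = 0.0215). In SD rats ID2 had 63.4, 88.2 and 55.2 CPM with vehicle and 28.7 to 61.7 CPM with TGFBRi (−0.43, adjusted p = 0.209), which library totals also called (−0.79, adjusted p = 0.0409). By TMM 25% of all genes were called in the ACI and 31.8% in the SD luminal sort, and by edgeR 0 of 8 ID values were, as by DESeq2, with 1 (ID4 of ACI rats) at an unadjusted p below 0.05.

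Splitting the luminal sort into its classes gave 3 calls, all downward. ID2 of ACI luminal progenitor-like cells fell from 129.7, 148.4 and 118 CPM to 61.8, 85.02 and 77.5 CPM without overlap, by 0.45 ± 0.18 on the log2 scale (adjusted p = 0.0345). It was called in all 5 settings, at −0.81 with library totals, but not without rat ACI12 or ACI8 (adjusted p up to 0.165). In the same cells ID4 had 36.3, 44.02 and 17.4 CPM with vehicle and 17.4, 11.8 and 15.3 CPM with TGFBRi (−0.73, adjusted p = 0.228 by edgeR and 0.0697 by DESeq2). Of all genes 28.5% were called there. Several marker sums of these cells separated the treatments as well. Luminal progenitor markers were at 15743 to 18109 CPM with vehicle and 25935 to 29909 CPM with TGFBRi, and mature luminal markers at 81.1 to 97.5 and 59.4 to 70.8 CPM. Smooth muscle markers were at 14.3 to 56.8 and 5.09 to 11.5 CPM, lymphatic endothelium markers at 15.3 to 23.3 and 5.26 to 7.65 CPM, and secretory basal markers at 201.1 to 220.6 and 143.1 to 146 CPM. Their part in the result was not tested.

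In SD mature luminal-like cells ID1 fell from 25.98, 12.97 and 19.99 CPM to between 4.56 and 13.6 CPM (−0.87 ± 0.35, adjusted p = 0.0667), with a slight overlap. ID2 fell from 18.1, 20.5 and 19.3 CPM to between 7.56 and 15.4 CPM, without overlap (−0.60 ± 0.25, adjusted p = 0.0651). Of all genes 32% were called in this comparison. Both calls were lost without rat SD1, SD3, SD11 or SD12, and that of ID2 also without SD2. Most vehicle cells of this class lay in cluster 9 (89.03%) and most TGFBRi cells in cluster 1 (76.7%). Lymphatic endothelium markers in these cells summed to 7.90 to 16.2 CPM with vehicle and 1.55 to 6.91 CPM with TGFBRi, and their part in the result was not tested. ID2 of SD luminal progenitor-like cells had 91.3, 105.4 and 75.7 CPM against 36.7 to 83.98 CPM (−0.30, adjusted p = 0.391, of 28.6% of genes called), and there cluster 0 held 85.2% of vehicle and 6.22% of TGFBRi cells. In ACI mature luminal-like cells, where 25.9% of genes were called, 0 members were by edgeR, with 0 at an unadjusted p below 0.05, and 0 of the 3 that DESeq2 gave an adjusted p.

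Mature luminal-like cells of the whole gland showed the same 2 members lower after TGFBRi. ID1 had 7.69, 14.9 and 24.0 CPM with vehicle and 4.36 to 7.28 CPM with TGFBRi (median 5.76), without overlap, at −1.43 ± 0.35 (adjusted p = 0.00446). ID2 had 10.3, 11.4 and 16.2 CPM with vehicle and 3.27 to 7.69 CPM with TGFBRi (median 4.91), without overlap, at −1.34 ± 0.31 (adjusted p = 0.00304). Both were called with each rat left out, and 27.3% of all genes were called. The call of ID2 was lost when cells were clustered at the finer resolution of 1.2 (adjusted p = 0.464). At that resolution edgeR called ID3 lower (−0.98, adjusted p = 0.00587), which was at −0.63 (adjusted p = 0.309) at the resolution used. Luminal progenitor markers in these cells summed to 654.6 to 1648 CPM with vehicle and 196.1 to 337.2 CPM with TGFBRi, and basal markers to 155.6 to 828.8 and 20.4 to 138 CPM. Their part in the result was not tested.

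Luminal progenitor-like cells of the whole gland went the other way for ID2. It had 14.2, 10.3 and 21.6 CPM with vehicle and 18.8 to 39.2 CPM with TGFBRi (median 24.3), overlapping, at 0.79 ± 0.30 (adjusted p = 0.063, of 31.2% of genes called). The call was lost without vehicle rat 1 or 2. Basal markers in these cells summed to 184 to 542.9 CPM with vehicle and 19.8 to 94.6 CPM with TGFBRi, and their part in the result was not tested. In sorted SD luminal progenitor-like cells the difference of ID2 was −0.30, as given above, and the 2 data sets were processed and clustered separately. With library totals edgeR called both, at −0.65 in the sorted cells (adjusted p = 0.0868) and 0.88 in the whole gland (adjusted p = 0.0514).

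In stromal classes the calls were all downward. Vascular smooth muscle-like cells had 81.5, 73.7 and 124.7 CPM of ID2 with vehicle and 44.9 to 79.8 CPM with TGFBRi (−1.02 ± 0.30, adjusted p = 0.00318). Their ID3 fell from 4546, 4039 and 1947 CPM to between 1676 and 3210 CPM (−0.77 ± 0.25, adjusted p = 0.0615). The groups of both genes overlapped, and 17.5% of all genes were called. The ID3 call was lost with library totals (adjusted p = 0.266) and without vehicle rat 1, vehicle rat 2 or TGFBRi rat 1. TGFBRi rats 1 and 2 gave only 14 and 21 such cells. Smooth muscle markers summed to 17026 to 19587 CPM with vehicle and 28252 to 31870 CPM with TGFBRi in these cells, and the part of that difference in the result was not tested.

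ID1 of Schwann-like cells had 38.2, 16.7 and 40.9 CPM with vehicle and 0 to 24.9 CPM with TGFBRi (median 12.1), at −1.32 ± 0.57 (adjusted p = 0.0526, of 10.8% of genes called). DESeq2 did not call it, nor did the fit without the 5% of cells with the most UMIs. It was also lost without vehicle rat 1, vehicle rat 4, TGFBRi rat 2 or TGFBRi rat 11. These were the 6 ID values called in the whole gland classes other than basal-like cells. Basal-like cells were compared by cluster, and their calls are given further on and not counted here. In the classes with 0 called by edgeR, 17.1% of genes were called in B cell-like, 30.7% in fibroblast-like, 15.8% in lymphatic endothelium-like, 24.8% in pericyte-like, 8.08% in T cell-like, 3.84% in macrophage-like and 3.9% in NK cell-like cells. ID2 of lymphatic endothelium-like cells (−0.76, adjusted p = 0.179) and ID4 of macrophage-like cells (−1.83, adjusted p = 0.268) had an unadjusted p below 0.05 there. DESeq2 called ID4 of B cell-like cells (−2.12, adjusted p = 0.0993). ID4 of NK cell-like cells, with 1 UMI in all, was not tested.

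Vehicle rat 4 stood apart in endothelium-like cells. ID2 had 8.17 and 5.84 CPM in vehicle rats 1 and 2 but 28.3 CPM in rat 4, against 9.10 to 17.2 CPM in TGFBRi rats. ID4 had 4.83, 7.98 and 34.2 CPM with vehicle and 15.8 to 24.9 CPM with TGFBRi. Without vehicle rat 4 both were called as higher after TGFBRi, ID2 at 0.90 (adjusted p = 0.00374) and ID4 at 1.49 (adjusted p = 0.000216), whereas with it ID2 was at −0.16 and neither passed. ID3 of these cells, at 141.4 to 210.4 CPM with vehicle and 166.6 to 307.2 CPM with TGFBRi, was also called without vehicle rat 4 (0.48, adjusted p = 0.0433) and with library totals over all rats (0.47, adjusted p = 0.0701), but not by the TMM fit of all rats (0.25, adjusted p = 0.326). Without the same rat ID4 of Schwann-like cells (1.48, adjusted p = 0.000928) and ID3 of B cell-like cells (0.46, adjusted p = 0.00205) were called as higher. Of all genes 31.8% were called in endothelium with all rats.

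Basal-like cells of the whole gland were compared by cluster, a choice made after seeing the data, since cluster 8 held 82.9% of the vehicle and 13.5% of the TGFBRi cells of the class and cluster 6 held 9.18% and 80.9%. In cluster 8 ID3 had 48.03, 49.4 and 81.1 CPM with vehicle and 88.03 to 153.2 CPM with TGFBRi, without overlap (0.85 ± 0.24, adjusted p = 0.00274, kept with each rat left out, of 34.8% of genes called). In cluster 25, where 3 of the 6 TGFBRi rats had at least 10 cells and entered the test, ID3 was at 0.93 (adjusted p = 0.00317) and ID4 at 1.10 (adjusted p = 0.00292), of 34.1% called, where the ID3 call was lost without the 5% of cells with the most UMIs (adjusted p = 0.222). With clusters 6, 8 and 25 together ID3 was at 0.79 (adjusted p = 0.0501), ID4 at 0.73 (adjusted p = 0.0565) and ID1 at −0.90 (adjusted p = 0.0489), of 44.1% called. The ID3 and ID4 calls of the 3 clusters together were lost without vehicle rat 1 or 2, and that of ID1 without vehicle rat 4 or TGFBRi rat 1 or 6 (adjusted p up to 0.244). Cluster 6 alone, where 3.22% of genes were called, gave ID3 at −0.25 (adjusted p = 0.72) and ID2 at −1.62 (adjusted p = 0.0721), a call lost without vehicle rat 1 or 4 or TGFBRi rat 6 or 14. ID3 was therefore higher after TGFBRi in single cells of the ACI basal sort and within cluster 8. The direction within cluster 6 was the opposite without passing the test, and ID3 of bulk ACI basal cells did not pass it either.

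Of the 32 clusters of the whole gland 12 had no name (15503 cells), and 2 of these, picked after seeing the data, were tested by number. Cluster 23, led by CCL17, CCL22 and FSCN1, held 737.9 to 924.6 CPM of ID2, which was at 0.12 with TGFBRi (adjusted p = 0.671, of 5.16% of genes called). ID1 was called lower there (−3.22, adjusted p = 0.0313), on 7, 2 and 6 UMIs with vehicle and 0 to 2 UMIs with TGFBRi. DESeq2 did not call it, and the call was lost without vehicle rat 1 or 4. Cluster 28, led by CCL19, GREM1 and CXCL13, held 1236 to 3794 CPM of ID3 in the 8 rats with at least 10 such cells, at −0.12 (adjusted p = 0.937, of 3.89% called). Of the other 10 clusters only levels over both treatments are given. ID2 was at 310.1 ± 61.5 CPM in cluster 15, led by SLPI and CFP, at 188.8 ± 41.5 CPM in cluster 20, led by CXCR6 and IL2RA, and at 164.3 ± 36.2 CPM in cluster 17, led by FCNB and IL1B (SD, n = 9). Cluster 17 also held 123.7 ± 38.7 CPM of ID1. Cluster 19, led by VTN, GPIHBP1 and RGS5, held 175.1 ± 15.9 CPM of ID1, 906.1 ± 243.3 CPM of ID3 and 60.3 ± 30.3 CPM of ID4. Cluster 29, led by the cell cycle genes CDKN3 and CDK1, held 321.8 ± 85.1 CPM of ID3 in 6 rats. In clusters 10, 16, 26 and 27 no member had a mean above 53.3 CPM, and the 47 cells of cluster 31 held 1 UMI of ID1 and 2 of ID3.

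In bulk, 2 of 128 ID values were called over 32 comparisons of TGFBRi with vehicle, both of ID4, where 0.588% of all gene values were called over the same comparisons. In CD45+ cells of young ACI rats at day 0, ID4 had 428.1, 820.3 and 772.9 normalized counts with vehicle and 168.1, 200 and 238.4 with TGFBRi, without overlap. It fell by 1.69 ± 0.43 on the log2 scale to 0.310 of its level (adjusted p = 0.0465), and 2.85% of all genes were called. At day 7 it had 532.7, 720.5 and 575.2 against 542, 389.9 and 211 (−0.77), where the title of the sample at 211 gives another day than its characteristics, and at day 14 413.7, 530.2 and 290.7 against 864.4, 261.8 and 584.1 (0.35), with overlap on both days, where 0% of genes were called. The effect differed by 2.04 ± 0.61 between day 14 and day 0 (adjusted p = 0.134 by limma, of 0.19% of genes called, and 0.0148 by DESeq2 on recovered reads).

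That call of ID4 in CD45+ cells was made in 3 of 6 settings (adjusted p from 0.00308 to 0.149) and kept in 1 of 6 fits with a library left out, that without vehicle replicate 1 (adjusted p up to 0.176 in the others). Fibroblast markers summed to 736541, 363396 and 611506 normalized counts in the 3 vehicle libraries and to 63357, 148161 and 21355 in the TGFBRi libraries, and basal markers to 3265, 10890 and 3071 against 111, 153 and 247. In the whole gland of SD rats ID4 was higher in smooth muscle-like, pericyte-like, Schwann-like, basal-like and fibroblast-like cells than in leukocytes. Among leukocytes macrophage-like cells held 1.88 to 7.90 CPM of ID4 with vehicle and 0 to 3.75 CPM with TGFBRi, with overlap (−1.83, adjusted p = 0.268). How far such cells account for the change of ID4 was not tested. ID1 of the same samples had 1374, 6548 and 4171 against 910.4, 1565 and 2943 (−1.05 ± 0.49, adjusted p = 0.271).

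**Figure D4:**
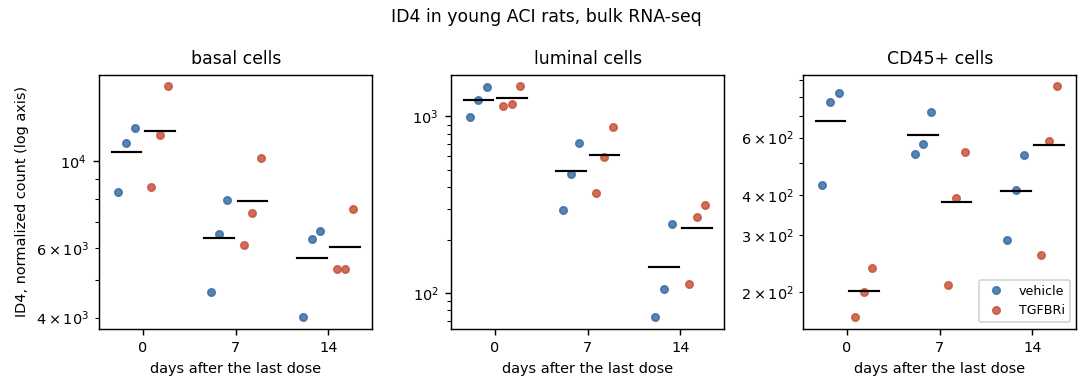
Normalized counts of ID4 (log axis) in basal, luminal and CD45+ samples of young ACI rats over 3 time points after dosing ended (day 0, 7 and 14), with 1 point for each of 3 rats per group. Luminal ID4 is lower at day 14 than at day 0 in both treatments, and CD45+ ID4 separates the treatments at day 0 only.

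Adult virgin rats showed more ID4 in basal cells after TGFBRi. It had 9447, 11107, 14576 and 8238 normalized counts with vehicle and 26305, 13171, 38119 and 19438 with TGFBRi, a difference of 1.09 ± 0.29 (2.12-fold, adjusted p = 0.0273). Of the TGFBRi rats 3 lay above all controls, and 1 lay below the highest control. Of all genes 8.73% were called, and the median difference over all genes tested was −0.25. The call was lost when only the virgin groups entered the fit (adjusted p = 0.122) and without TGFBRi replicate 3 or vehicle replicate 1, 2 or 4 (adjusted p up to 0.081, differences from 0.83 to 1.34). Without vehicle replicate 1, the mixed library, the difference was 1.03 (adjusted p = 0.0565).

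In parous rats ID4 of basal cells had 11647, 9966, 19002 and 16128 normalized counts with vehicle and 14835, 13546, 15144 and 15732 with TGFBRi, a difference of 0.11 ± 0.29 (adjusted p = 1, of 0.00744% of genes called). In the other adult comparisons 0% (luminal virgin), 0.0281% (luminal parous), 0.022% (CD45+ virgin) and 0% (CD45+ parous) of genes were called and 0 members. The effect in parous minus that in virgin rats was −0.98 ± 0.40 (adjusted p = 0.237), so that a difference between them was not shown, and 1.04% of genes passed that test. Basal markers in the adult basal libraries of virgin rats summed to 241916, 415517, 205092 and 197076 with TGFBRi. With vehicle they summed to 254821 in the mixed library of replicate 1 and to 487029, 530306 and 476593 in the others, which all lay above every TGFBRi library. The part of that difference in the result was not tested.

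The other bulk comparisons of TGFBRi with vehicle in young rats did not pass the test. In ACI basal cells at day 0, where 3.34% of genes were called, ID2 had 1807, 1943 and 1985 with vehicle and 2439, 2892 and 3082 with TGFBRi, without overlap but at 0.55 ± 0.46 (adjusted p = 0.476). ID3 there had 6489, 7023 and 5516 against 5351, 10440 and 7852 (0.27, adjusted p = 0.83), and ID4 was at 0.16 and ID1 at −0.04. The median difference over all genes in this comparison was 0.298, so that ID3, ID4 and ID1 did not lie above it. In luminal cells on day 7 0% of genes and 0 members were called. On day 7 and day 14 basal cells gave 0.00639% and 0% of genes called and 0 members. In ACI luminal cells at day 0, of 1.01% called, the 4 members lay between −0.23 for ID2 and 0.59 for ID1, against a median of 0.21 over all genes. At day 14 the differences of all 4 in luminal cells were upward, at 0.97, 0.90, 1.21 and 0.77 for ID1 to ID4, against a median of 0.04 over all genes. The groups of ID4 overlapped, and the vehicle samples of that day were below those of day 0 for all 4, as given below. By limma 0 genes were called, members included, with 1268 genes at an unadjusted p below 0.05.

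The sample descriptions of the treated young SD rats in bulk also name weak and strong responders, an outcome by which they were not split. Young SD rats had 0 ID calls by limma, edgeR or DESeq2, among 0 genes called by limma in each fraction (494, 244 and 501 genes at an unadjusted p below 0.05 in basal, luminal and CD45+ cells), with 1 ID value at an unadjusted p below 0.05. That value was ID4 of luminal cells, at 460, 114.3, 163.7 and 111.1 with vehicle and 62.05, 107.8, 75.3 and 83.85 with TGFBRi, without overlap (−1.12 ± 0.49, adjusted p = 1). In basal cells ID3 had 824.9, 1673, 4276 and 3032 with TGFBRi against 1839, 1385, 1683 and 2229 (0.23). The 4276 came from replicate 3, whose library held 52700 of basal and 621336 of fibroblast marker counts against 123097 to 131695 and 186542 to 307358 in the other treated rats, and their part was not tested.

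**Figure D5:**
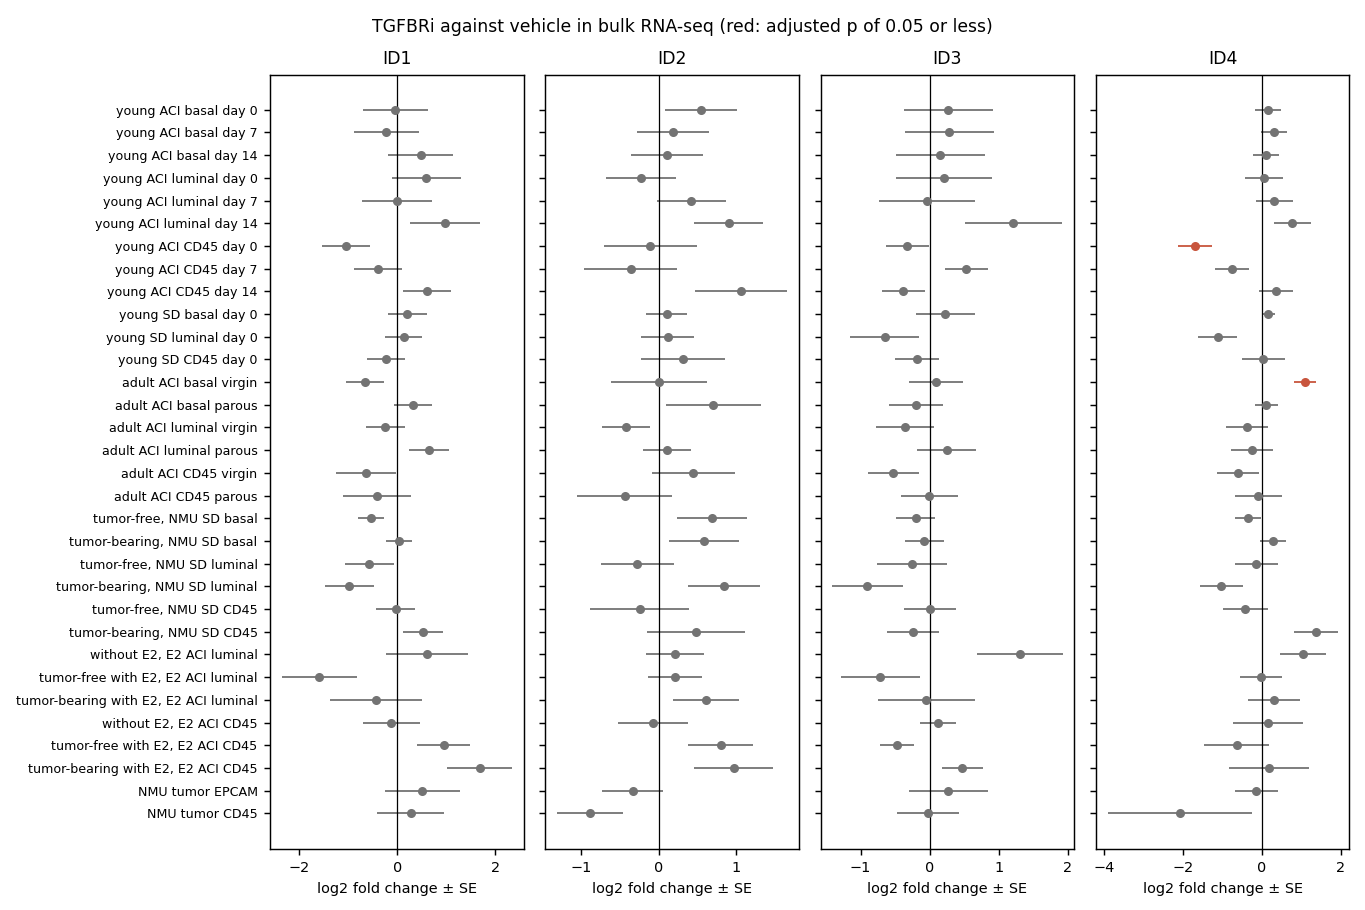
Log2 differences of the ID genes in 32 bulk comparisons of TGFBRi with vehicle, with bars of 1 standard error and red for adjusted p of 0.05 or less. ID4 of young ACI CD45+ cells at day 0 and of adult virgin basal cells are the only red points.

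Luminal ID4 fell with time in vehicle ACI rats. From 998, 1459 and 1246 normalized counts on day 0 it went to 294.6, 708 and 469.6 on day 7, where the labels of replicate 3 (469.6) conflict, giving control as its treatment but a treated animal in its description, as they do for the basal sample of the same rat (7964 below). On day 14 it was at 106.3, 245.2 and 73.38. The groups of day 0 and day 14 did not overlap, a fall by 3.29 ± 0.48 on the log2 scale (adjusted p = 0.00719), while 0.389% of all genes were called. On day 7 the difference from day 0 was −1.40 ± 0.48 (adjusted p = 0.175, of 0.685% called). TGFBRi rats had 113.1, 269.1 and 316.3 at day 14. The day 14 call was made in 6 of 6 settings but lost without luminal day 14 vehicle replicate 1 or 3 or day 0 vehicle replicate 3 (adjusted p up to 0.0543).

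The other members were also lower in luminal vehicle cells on day 14 than on day 0, without passing the test, where 0.389% of all genes were called. ID1 went to 614.9, 1467 and 501.7 (−1.71, adjusted p = 0.53) and ID2 to 3269, 6308 and 2744 (−1.11, adjusted p = 0.507). ID3 went to 599.1, 1638 and 474 (−1.40, adjusted p = 0.698). In a limma fit with only the 2 groups compared, ID1 (adjusted p = 0.0278) and ID2 (adjusted p = 0.0336) passed. In basal vehicle cells ID4 had 4636, 6519 and 7964 on day 7, below all samples of day 0 (−0.74, adjusted p = 0.393, of 0.192% of genes called). On day 14 it had 6330, 6659 and 4016, also without overlap (−0.91, adjusted p = 0.356, of 0.0384%).

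In the tumor experiments no ID gene passed the test between treated and vehicle rats, by limma, edgeR or DESeq2, with 1 NMU and 1 E2 value at an unadjusted p below 0.05. Of all genes 0% in basal, 0.948% in luminal and 0% in CD45+ cells were called for tumor-free TGFBRi rats of the NMU experiment, and 1.31%, 0.212% and 0.015% for tumor-bearing TGFBRi rats. In the E2 experiment 0.0147% (without E2), 0.0147% (tumor-free) and 0.00736% (tumor-bearing) were called in luminal cells and 0%, 0% and 0.0223% in CD45+ cells. ID4 of NMU CD45+ cells had 105.8, 349.3 and 437.8 normalized counts in tumor-bearing vehicle rats and 920.1, 586.7 and 510.3 in tumor-bearing TGFBRi rats (1.36 ± 0.56, adjusted p = 0.59), where the 920.1 came from the library with the basal markers named above. Basal markers summed to 257536, 32589 and 20898 in these TGFBRi libraries and to 12588, 8510 and 7192 in the vehicle libraries, without overlap. Fibroblast markers summed to 148493, 106972 and 147284 with TGFBRi and to 178317, 393390 and 380531 with vehicle, also without overlap. The part of either in the result was not tested. Tumor-free TGFBRi rats had 242.6, 262.7 and 106.2. ID1 of E2 CD45+ cells had 2841 and 511.4 in the 2 tumor-bearing TGFBRi rats and 474.3, 885.4, 153.8 and 308.6 with vehicle (1.68 ± 0.66, adjusted p = 0.589).

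In NMU tumors ID2 of CD45+ cells had 17213, 6074 and 5464 normalized counts with vehicle and 3706, 4912 and 4961 with TGFBRi, without overlap (−0.89 ± 0.43, adjusted p = 0.754, of 0% of genes called). Tumor leukocytes held little ID4, 6.98 to 24.4 with vehicle and 0.974, 0 and 31 with TGFBRi. EPCAM+ tumor cells held ID1 at 381.6, 593.9 and 566.4 with vehicle and 211.2, 667.3 and 2595 with TGFBRi. These EPCAM+ libraries also held 118829 to 1483110 normalized counts of fibroblast markers, and the part of those markers in the values was not tested. In EPCAM+ tumor cells 0% of genes were called.

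The partners and regulators of the family were read from lists of genes. The bulk sorts compared also differed in markers of other cells. Fibroblast marker sums of vehicle ACI rats at day 0 were 54011 to 127204 (basal) against 10879 to 22417 (luminal). For vehicle SD rats they were 370891 to 594091 against 4980 to 19730. Endothelium markers were higher in the ACI basal sort too (2091 to 11653 against 1125 to 1888) but overlapped in SD rats. The part of such cells in the bulk list values was not tested. Among E proteins, which ID proteins bind, TCF4 was higher in basal than in luminal bulk cells in both strains, at 1.55 ± 0.30 in ACI (adjusted p = 0.000215) and 2.71 in SD rats, as the only called member of 3 in ACI and with TCF12 (2.31) in SD rats. Of the BMP receptors and SMADs upstream of ID genes, 3 of 10 were higher in ACI basal cells (ENG 4.20, ACVR1 2.87 and SMAD5 1.64) and 1 lower (BMPR1B −3.996), where 20.5% of all genes were called. In SD rats 6 of 9 were higher and 0 lower, where 40.9% were called. BMP feedback genes were called for BAMBI (2.37) and ATOH8 (4.22) of 6 in ACI basal cells, both higher, with a list median of 1.37 against 0.21 over all genes. In SD rats BAMBI was higher (1.39) and SMAD7 (−1.09) and HES1 (−1.62) lower, with a median of −0.10 against 0.02. Of the 5 listed CDK inhibitors that ID proteins hold down, CDKN1C was higher in basal cells in both strains (3.49 and 3.77) and CDKN1A lower in SD rats (−1.63). The shares of all genes called were again 20.5% in ACI and 40.9% in SD rats. All 5 luminal differentiation genes were called lower in basal cells of both strains, with medians of −6.30 in ACI and −5.96 in SD rats, among them the milk gene LALBA (−6.58 and −6.44) and ELF5 (−5.39 and −5.46), a transcription factor of alveolar cells.

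The counts of list members called after TGFBRi in single cells are to be read against all genes, of which 33% were called in ACI basal, 24.7% in SD basal, 25% in ACI luminal and 31.8% in SD luminal cells. Those called lower were 17.5%, 12.2%, 11.7% and 14.6% in the same order. Those called higher were 2185 of 14094, 1827 of 14585, 1846 of 13808 and 2520 of 14621 genes. The list of BMP receptors and SMADs is short, and its counts are given as a description. In ACI basal cells 3 of 10 fell, BMPR1A (−0.73), SMAD4 (−0.74) and ENG (−0.47), and 2 rose, among them SMAD9 (1.92), with a list median of −0.13 against −0.03 over all genes. In SD basal cells 2 of 10 fell, BMPR1A (−0.91) and SMAD4 (−1.36), and 0 rose, with a median of −0.46 against 0.07. In SD luminal cells 4 of 8 fell, SMAD4 (−1.37), BMPR1B (−0.76), BMPR1A (−0.67) and BMPR2 (−0.58), and in ACI luminal cells 2 of 8, SMAD4 (−0.67) and ACVR1 (−0.55), with 0 that rose in either luminal sort. SMAD4, the shared partner of both SMAD branches, was thus called lower in all 4 sorts, by TMM scaling.

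For the TGFβ-SMAD3 targets only members called lower are given, and for CDK inhibitors and luminal differentiation genes only those called higher. Of the TGFβ-SMAD3 targets the members called lower were 2 of 8 in ACI basal (CCN2 −2.47 and SKIL −0.35), 2 of 8 in SD basal (CCN2 −1.56 and SKIL −1.49) and 4 of 8 in SD luminal cells. In ACI luminal cells SKIL fell (−0.35). Of the CDK inhibitors 2 of 3 tested rose in ACI basal (CDKN1A 0.82 and CDKN1C 0.53), 2 of 4 in ACI luminal (CDKN1A 0.98 and CDKN1C 0.68) and 0 of 5 in either SD sort. E proteins moved both ways, with TCF3 higher (0.65 and 0.81) and TCF12 lower (−0.73 and −0.88) in SD basal and luminal cells and TCF4 higher (0.28) in ACI basal cells. Of the 5 luminal differentiation genes 3 milk genes rose in ACI luminal cells (WAP 2.21, CSN3 1.15 and LALBA 0.94) and 3 in SD luminal cells (CSN2 6.16, WAP 2.41 and CSN3 1.67).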

How the data were processed

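Bulk RNA was sequenced from sorted fractions and single-cell RNA from sorted cells and whole glands. The bulk values are a signal that the authors deposited as read counts divided by DESeq2 size factors. The submitters' processing notes name STAR 2.5.1b, HTSeq, DESeq2 1.30.1 and the rn6 build for bulk, and Cell Ranger 4.0.0 and 7.0.0 and Seurat 4.0.0 and 4.1.1 for single cells. The single-cell files hold raw UMI counts as deposited by the authors, for as many cells as the paper kept after its filters. Dividing each bulk library by its smallest step gave whole reads for 100% of values above 0 (tolerance 0.001), with 4194912 to 52314784 reads on genes per library. Rows that name no gene, 23.1 to 42.5% of reads in 85 libraries, were left out.

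Bulk values were tested with limma 3.58.1 (trend and robust) on log2(value + 1), for genes with a sum of at least 10, at an adjusted p of 0.05 (Benjamini-Hochberg over all genes tested). All groups of a fraction entered 1 model. The pseudocount understates changes of low genes. UMI counts were summed per rat and class (at least 10 cells) and tested with edgeR 4.0.16 (quasi-likelihood, TMM) at an adjusted p of 0.1, with standard errors from DESeq2 1.42.0. Cells were clustered with scanpy 1.11.5 (2000 genes, 30 components, 20 neighbours, resolution 0.8), and a cluster was named from at least 3 detected markers. No doublet caller was run, and leaving out the 5% of cells with the most UMIs was an alternative. Scripts were tested on simulated data.

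The members, lists and tests were chosen with earlier results of these data known. The genes named are the 4 members, the called genes of the lists and, for each member, the 3 genes most like it. Alternatives were other scalings, tests, pseudocount and filters, only the groups compared, a replicate block, another clustering resolution and each replicate left out. Basal and luminal sorts were paired by rat code. Replicates are separate rats. The result of 1 listed gene is not reported here.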

Additional observations from a re-analysis of the deposited data

Results flagged for a closer look

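Of 156 groups of 4 to 10 samples, 19 had 1 sample far from the others, against 7.8 expected by chance, which sets about 1 in 20 groups apart. In bulk these were ID2 of adult virgin vehicle replicate 1 in basal cells (5098 normalized counts, others 348.4 to 580), ID3 of its luminal cells (6174, others 942.4 to 1718) and ID4 of its CD45+ cells (2671, others 448.7 to 742.2), all from the rat with mixed markers. ID2 of adult parous TGFBRi replicate 4 in CD45+ cells was at 30208 (others 9962 to 10395). Among young SD vehicle rats ID1 of luminal replicate 3 was at 3517 (others 1221 to 1478) and ID4 of luminal replicate 1 at 460 (others 111.1 to 163.7). Tumor-free TGFBRi rat A4-24 with E2 had 1535 of ID1 in CD45+ cells (others 515.3 to 631.1) and 1483 in luminal cells (others 66.65 to 240.6).

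In sorted single cells of SD TGFBRi rats, SD13 had 51.58 CPM of ID1 (others 2.619 to 13.68), 57.11 CPM of ID2 (others 5.183 to 14.27) and 443 CPM of ID4 (others 304.6 to 343.2) in basal cells and 20.03 CPM of ID1 in luminal progenitor-like cells (others 1.564 to 7.899). SD14 had 2.224 CPM of ID4 in the luminal sort (others 3.384 to 3.971), and SD12 had 48.4 CPM of ID3 in mature luminal-like cells (others 4.816 to 11.62). In TGFBRi whole glands, rat 1 had 20.08 CPM of ID1 in NK cell-like cells (others 3.75 to 7.513) and 9.101 CPM of ID2 in endothelium-like cells (others 14.18 to 17.17). Rat 4 had 1.359 CPM of ID4 in NK cell-like cells, where the others were at 0. In vascular smooth muscle-like cells rat 6 had 120.7 CPM of ID1 (others 319.4 to 426.5) and rat 2 had 79.85 CPM of ID2 (others 44.9 to 54).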

How the results depend on the processing

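Of 4796 single ID values under an alternative, 4303 were called in neither fit, and 315 of these had the other sign. Of the rest, 67 lost and 52 gained a call, and 1 value not called in the main fit was called with the other sign. This was ID2 of endothelium-like cells, from −0.16 (adjusted p = 0.832 by edgeR) to 0.90 without vehicle rat 4. It lay between −0.53 and 0.90 over the rats left out. The cause was not tested. Counts of called ID values were as follows. With rat as replicate block the ACI lineage count went from 2 to 4, and the blocks changed no other count by over 1.5 times. With only the 2 groups compared, the adult count went from 1 to 0, the young ACI drug count from 1 to 0 and the vehicle day count from 1 to 3. The young ACI count was also 0 with TMM in limma and with edgeR, and the vehicle day count was 2 with DESeq2. With library totals, an alternative chosen after seeing the data, the luminal class count went from 3 to 6, all lower, while the median of all genes moved down by 0.22 to 0.36 and 27.5 to 42.9% of all genes were called.

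With 1 replicate left out, the counts ranged from 0 to 2 for E2 (2 without tumor-bearing TGFBRi replicate 2 of CD45+ cells, which leaves 1 rat in that group, assumed to vary like the other groups), 0 to 1 for NMU (1 without basal tumor-bearing TGFBRi replicate 1), 0 to 1 for adult, 0 to 2 for young ACI drug (2 without CD45+ day 0 vehicle replicate 1), 0 to 3 for vehicle days (3 without the same library), 2 to 4 for sorted single cells, 1 to 4 for luminal classes and 4 to 10 for whole gland classes (10 without vehicle rat 4). The whole gland counts leave out basal-like cells, which were compared by cluster. Adult animal codes and whole gland rat numbers did not pair samples. With the number as a block the whole gland count was 5, losing ID2 of vascular smooth muscle-like cells (adjusted p = 0.205). Few UMIs limit ID4 outside basal and stromal cells and ID1 in sorted basal cells.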

Other observations

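ID4 was at 31.5 ± 10.9 CPM (SD, n = 9) in basal-like cells of the whole gland and at 304.6 to 443 CPM in the basal sort of TGFBRi SD rats, data sets made with kits that read opposite ends of the transcript and processed separately, and this difference was not tested.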
